A study of Mus musculus with 6 samples.

Results

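The AP-1 and immediate early genes described here are 10 genes, Fos, Fosb, Fosl1, Fosl2, Jun, Junb, Jund, Atf3, Egr1 and Dusp1, taken by symbol from the 54418 genes of the deposited table. All 10 passed the filter on low counts and were among the 14714 genes tested. RNA was measured in mouse AKP organoids, self-organising epithelial cultures that both groups share. The labels do not list the alleles behind the name AKP. There were 3 libraries labelled Control and 3 labelled GATA6KO, a knockout of the endodermal transcription factor Gata6. The labels give no age, culture time, guide or clone, and do not state that the replicates are separate cultures, so every p-value here rests on a between-library spread that may be technical.

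AP-1 is a family of dimeric transcription factors built from a FOS protein and a JUN protein, or from JUN proteins alone, which join through a leucine zipper and bind the sequence TGACTCA. The related ATF and CREB factors prefer TGACGTCA, and dimers of both kinds occur. Many of these genes are immediate early genes: growth factors and stress switch them on through MAP kinases within minutes, without new protein synthesis, and their transcripts decay quickly. In intestinal epithelium AP-1 is known for its part in proliferation, wound repair and tumours.

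Fos, Atf3 and Dusp1 were the members with the lowest levels in GATA6KO relative to Control. The 250 bases before the RefSeq start site (GRCm38.p6) of these 3 genes and of Jun are shown because these windows hold the short elements through which ATF, CREB and AP-1 factors are known to act. Capitals mark TGACGT (the core of TGACGTCA), TGACTCA, TGACATCA and TATAAA, searched on both strands.
Fos: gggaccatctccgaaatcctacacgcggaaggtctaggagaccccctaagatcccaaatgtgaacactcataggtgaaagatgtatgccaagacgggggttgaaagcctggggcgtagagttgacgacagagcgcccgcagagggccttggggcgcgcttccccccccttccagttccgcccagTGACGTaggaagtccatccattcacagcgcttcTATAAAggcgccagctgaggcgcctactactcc
Atf3: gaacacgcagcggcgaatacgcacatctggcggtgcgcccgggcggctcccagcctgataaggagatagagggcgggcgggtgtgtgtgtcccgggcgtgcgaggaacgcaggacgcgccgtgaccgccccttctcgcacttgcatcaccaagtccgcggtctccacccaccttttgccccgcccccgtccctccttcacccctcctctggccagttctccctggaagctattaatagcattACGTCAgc
Dusp1: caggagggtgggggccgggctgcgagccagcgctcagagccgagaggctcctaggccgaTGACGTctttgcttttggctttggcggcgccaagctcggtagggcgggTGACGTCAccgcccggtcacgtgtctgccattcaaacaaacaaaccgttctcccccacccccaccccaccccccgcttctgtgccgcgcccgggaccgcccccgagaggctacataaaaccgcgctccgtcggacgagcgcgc
Jun: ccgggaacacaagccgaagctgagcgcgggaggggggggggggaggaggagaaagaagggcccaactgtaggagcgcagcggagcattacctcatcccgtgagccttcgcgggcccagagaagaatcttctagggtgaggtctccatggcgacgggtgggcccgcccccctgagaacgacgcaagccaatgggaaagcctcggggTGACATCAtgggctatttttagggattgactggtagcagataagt
The windows are chr12:85473640-85473889 on the plus strand for Fos, and chr1:191183334-191183583, chr17:26508473-26508722 and chr4:95052223-95052472 on the minus strand for Atf3, Dusp1 and Jun.

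Of the 8 members with a window in the RefSeq table (Fosl1 and Egr1 were not among them), Fos, Atf3 and Dusp1 held TGACGT, as did 6.47% of all 32851 promoter windows of that length. Fos held it 66 bases before the start and TATAAA 33 bases before the start. Atf3 held it on the other strand, 8 bases before the start. Dusp1 held TGACGT 191 bases before the start and the whole TGACGTCA 143 bases before the start, where the core matches on both strands. TGACGTCA stood in 1.55% of all windows. Jun held TGACATCA, the variant AP-1 site known from its promoter, 45 bases before the start, as did 2.93% of all windows. None of the 8 windows held TGACTCA, which stood in 4.46% of all windows. A match is a description of these letters. Atf3 and Dusp1 also have GENCODE transcripts that start 34706 and 53656 bases further upstream, and the RefSeq start of Jund lies 1210 bases upstream of its GENCODE start.

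Before the members, the libraries themselves are described. Total estimated counts ran from 22973245 to 31328415 per library. Levels are CPM, counts per 1000000 counts of a library after TMM scaling, and a gene is called at an adjusted p under 0.05 from edgeR's quasi-likelihood test over all genes tested. For the targeted gene Gata6, Control libraries stood at 25.3, 23.2 and 28.0 CPM, and GATA6KO libraries at 14.3, 16.0 and 8.24 CPM, each triple given here and below in the order of replicates 1 to 3 (log2 fold change -0.99, SE 0.25, edgeR adjusted p = 0.0486), lower in 3 of 3 GATA6KO libraries and not called without Control replicate 1, 2 or 3 (adjusted p of up to 0.181), with library totals alone as scaling (0.0573) or with the replicate number as a block (0.0915). Chromosome 14 was low in GATA6KO replicate 2 (median log2 ratio over its genes, against Control, of -0.90), and no member lies on that chromosome. Of the genes in the lists below, Spry2, Mapk8, Plau and Mmp14 (tested, not called) and Egr3 (not tested) lie on it. The effect on the list medians was not tested. The mitochondrial share of counts was 1.85% to 1.88% for Control libraries and 2.07%, 2.84% and 2.81% for the GATA6KO libraries, and its part in the results was not tested. The 8 epithelial markers were expressed in every library, with summed levels of 9589 to 10400 CPM in Control and 6568 to 7688 CPM in GATA6KO. All 8 had a negative log2 fold change (median -0.45), and Cdh1, Krt8 and Krt18 were called lower, where 5.47% of all genes tested were. Their part in the results was not tested. The 7 fibroblast and 6 leukocyte markers had at most 11 counts in any library, with summed levels of at most 0.701 CPM. Of the 4 endothelial markers, summing to 2.50 to 2.63 CPM in Control and 3.48 to 5.62 CPM in GATA6KO, only Vwf was tested, and it was not called.

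Across the members, 4 of 10 were called lower in GATA6KO and 0 higher by the edgeR test, where 5.47% of all genes tested were called lower and 6.92% higher. Those called were Atf3, Dusp1, Fos and Jund. At an unadjusted p under 0.05, 7 members were lower and 0 higher, where 14.7% of all genes tested were lower, and neither DESeq2 nor limma-voom called a member higher. All 10 had a negative log2 fold change, as did 48.1% of all genes tested, and the median was -0.73 against 0.02 for all genes. In 8 of 10 members all 3 GATA6KO libraries lay below every Control library. For 40.8% of all genes tested the groups did not overlap, in either direction. Fosl1 and Fosl2 had GATA6KO libraries on both sides of Control. For single genes a 2-sided exact permutation test of 3 against 3 libraries cannot go below p = 0.1, the value these 8 members gave. In such bulk samples, fewer cells that express a gene and less of its RNA per cell cannot be told apart.

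**Figure D1:**
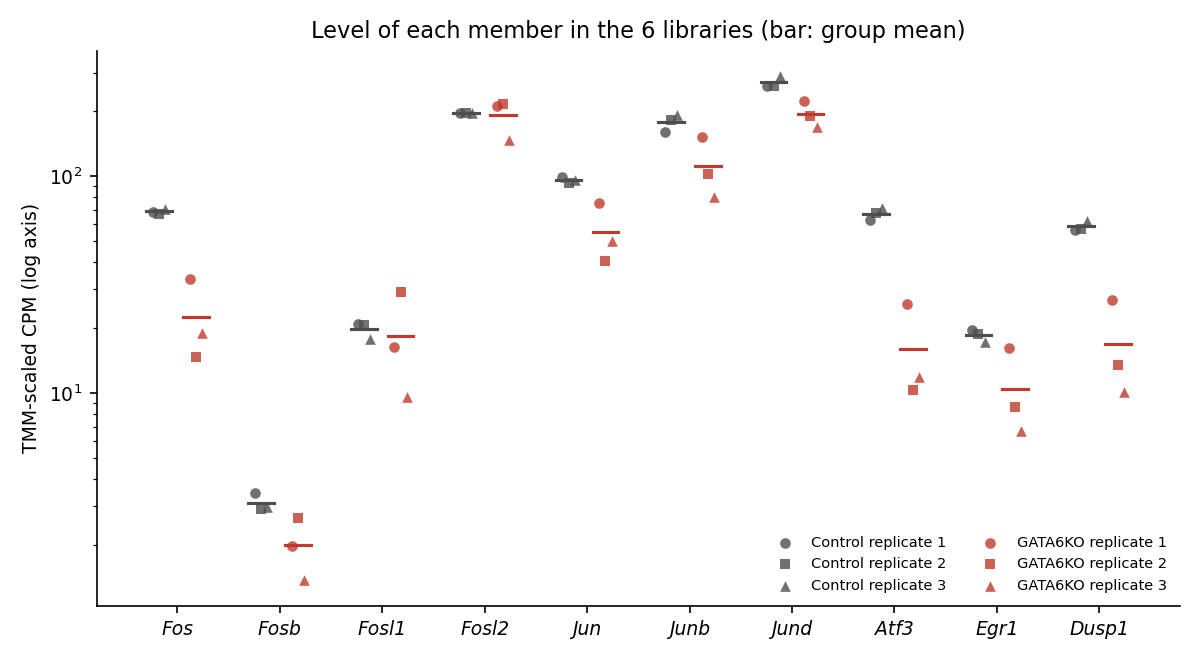
TMM-scaled CPM of the 10 members on a log axis, with a point for each of the 3 Control (grey) and 3 GATA6KO (red) libraries, marker shape for the replicate number and a bar for the group mean. Control points lie close together, whereas GATA6KO points spread more widely and lie below Control for all members but Fosl1 and Fosl2.

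Fos, the founding member of the FOS family and a classic growth factor response gene, fell. Its level was 68.6, 67.0 and 70.8 CPM in Control and 33.6, 14.7 and 19.0 CPM in GATA6KO. The groups did not overlap, and GATA6KO replicate 1 was the highest of its group. The means were 68.8 ± 1.91 and 22.4 ± 9.92 CPM (SD, n = 3 each), a log2 fold change of -1.62 (SE 0.29, edgeR adjusted p = 0.0183). Fos lies on chromosome 12 of mm10, from 85473890 to 85477273.

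The other FOS genes were not called. Fosb, a close relative of Fos that is also induced early, was the member with the lowest CPM. It measured 3.46, 2.91 and 2.97 CPM in Control and 1.97, 2.66 and 1.37 CPM in GATA6KO (log2 fold change -0.64, SE 0.30, edgeR adjusted p = 0.203). Fosl1, which encodes FRA-1, a FOS protein without the transactivation domain of FOS and often high in tumours, measured 20.9, 20.6 and 17.7 CPM in Control and 16.2, 29.1 and 9.61 CPM in GATA6KO (log2 fold change -0.11, SE 0.37, edgeR adjusted p = 0.872). GATA6KO replicate 2 lay above and replicate 3 below every Control library. Fosl2, which encodes FRA-2, was the FOS gene with the highest CPM, at 194, 195 and 196 CPM in Control and 210, 215 and 146 CPM in GATA6KO (log2 fold change -0.03, SE 0.15, edgeR adjusted p = 0.899). The Fosl2 estimate was 0.04 when scaled by the library total alone, and without GATA6KO replicate 3 the estimates for Fosl1 and Fosl2 were 0.20 and 0.12, all with edgeR adjusted p above the threshold.

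Among the JUN genes, Jund was called and Jun and Junb were not. Jund, the JUN gene that is expressed steadily rather than induced, measured 262, 261 and 289 CPM in Control and 221, 190 and 169 CPM in GATA6KO. All 3 GATA6KO libraries were below Control, with means of 271 ± 16.3 and 193 ± 26.1 CPM (SD over 3 libraries each) and a log2 fold change of -0.48 (SE 0.12, edgeR adjusted p = 0.0451). Jun, the partner that forms the strongest activating dimers with FOS, measured 98.6, 93.1 and 95.5 CPM in Control and 75.3, 40.7 and 50.0 CPM in GATA6KO. These groups did not overlap either (log2 fold change -0.79, SE 0.22, edgeR adjusted p = 0.0603). Junb, a JUN protein that can restrain JUN, measured 160, 181 and 191 CPM in Control and 152, 102 and 79.7 CPM in GATA6KO (log2 fold change -0.67, SE 0.23, edgeR adjusted p = 0.103). Its GATA6KO replicate 1 came within 8 CPM of the lowest Control library. The annotated span of Junb overlaps that of Prdx2 on the opposite strand (up to 8195 counts in a library), as the span of Dusp1 does with Ergic1 (up to 4375 counts) and that of Fosl1 with Ccdc85b (up to 770 counts). The use of strand in counting is not stated, so reads from shared stretches of these pairs may not be separable. The antisense genes that overlap Jun and Jund had at most 40 and 12 counts.

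Atf3, a stress-induced bZIP factor that pairs with JUN proteins and also binds alone, had the largest decrease of the 10. It measured 62.5, 67.8 and 70.9 CPM in Control and 25.7, 10.3 and 11.8 CPM in GATA6KO. The means were 67.1 ± 4.27 and 15.9 ± 8.50 CPM (SD, n = 3 each), a log2 fold change of -2.07 (SE 0.35, edgeR adjusted p = 0.0147). Its GATA6KO libraries stood at 38.3%, 15.4% and 17.6% of the Control mean. Atf3 lies on chromosome 1 from 191170296 to 191218039.

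Dusp1, a nuclear phosphatase that switches off MAP kinases and is itself an immediate early gene, fell to a like extent. It measured 56.6, 57.2 and 62.3 CPM in Control and 26.9, 13.4 and 10.1 CPM in GATA6KO. The groups stood apart, with means of 58.7 ± 3.17 and 16.8 ± 8.87 CPM (SD over 3 libraries each) and a log2 fold change of -1.80 (SE 0.35, edgeR adjusted p = 0.0218). Egr1, a zinc-finger factor whose promoter responds to serum through SRF and ETS factors as that of Fos does, was not called. It measured 19.5, 18.7 and 17.2 CPM in Control and 16.1, 8.62 and 6.67 CPM in GATA6KO (log2 fold change -0.82, SE 0.32, edgeR adjusted p = 0.136). GATA6KO replicate 1 lay close to Control and the other 2 replicates well below it. Dusp1 and Egr1 lie on chromosomes 17 and 18.

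**Figure D2:**
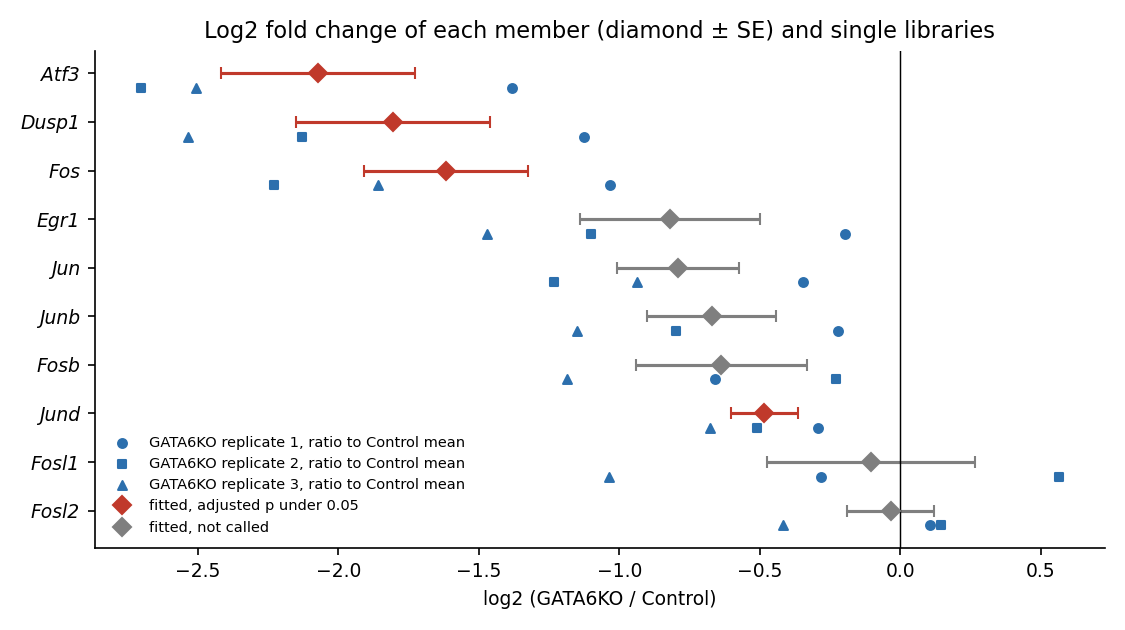
Log2 fold change of GATA6KO over Control for each member (diamonds with SE bars, red where called) and, below each, the log2 ratio of every GATA6KO library to the Control mean (blue). Atf3, Dusp1 and Fos lie at -2.07, -1.80 and -1.62, and in 7 members GATA6KO replicate 1 is the highest of the 3 blue points.

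The number of members called changed when any single library was left out, and in the same way for each Control library. Without Control replicate 1, 2 or 3, none of the 10 members was called, where 1.11%, 1.04% and 0.855% of all genes tested were called lower. At an unadjusted p under 0.05, 6, 6 and 5 members were then lower, where 9.7%, 10.1% and 9.09% of all genes tested were. Fos had edgeR adjusted p of 0.0739, 0.0700 and 0.0822, with log2 fold changes of -1.61, -1.65 and -1.61. Atf3 had 0.0600, 0.0593 and 0.0714, with log2 fold changes of -2.11, -2.08 and -2.05. Dusp1 had 0.0813, 0.0791 and 0.0961, and Jund 0.136, 0.130 and 0.170. Without GATA6KO replicate 1, 7 members were called lower, against 14% of all genes tested: besides the 4, these were Jun (adjusted p = 0.00384), Junb (0.00861) and Egr1 (0.00605). Without GATA6KO replicate 2 or 3, Atf3, Dusp1 and Fos were called, against 6.91% and 4.93% of all genes lower, and Jund was not (adjusted p = 0.0688 and 0.0678). With genes of any count kept, 2 members were called (Fos and Jund), against 2.42% of all genes lower. Atf3 then had adjusted p = 0.0527 and Dusp1 adjusted p = 0.0737. With library totals alone as scaling, 3 members were called, against 4.62% of all genes lower, and Jund was not (adjusted p = 0.0571). With the replicate number as a block, the same 3 were called, against 2.36% of all genes lower, and Jund was not (adjusted p = 0.107).

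DESeq2 called 6 members lower, Jun and Junb besides the 4 (adjusted p = 0.00553 and 0.0298), where it called 10.4% of all genes lower. Limma-voom called 5 lower, Jun besides the 4 (adjusted p = 0.0480), against 6.09% of all genes. Egr1, Fosb, Fosl1 and Fosl2 were not called by either tool.

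GATA6KO replicate 1 was the highest of its group for Fos, Jun, Junb, Jund, Atf3, Egr1 and Dusp1, 7 of 10 members, where it was the highest for 37.5% of all genes tested and for 54.9% of the genes called lower. GATA6KO replicate 2 was the highest for Fosb, Fosl1 and Fosl2. GATA6KO replicate 3 was the lowest for 7 of 10 members, where it was the lowest for 31.3% of all genes tested, and replicate 2 was the lowest for the other 3. For Gata6 itself GATA6KO replicate 2 was the highest and replicate 3 the lowest.

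Levels were compared between genes as CPM per kb of annotated exon, since longer transcripts give more counts. This length sums all exons of a gene in GENCODE M21, including those of rare transcripts. In Control the order was Jund (162 ± 9.75 CPM per kb), Junb (76.9 ± 6.88), Atf3 (31.1 ± 1.98), Jun (30.0 ± 0.87), Fos (29.2 ± 0.81), Fosl2 (20.2 ± 0.07), Dusp1 (17.7 ± 0.96), Fosl1 (9.70 ± 0.85), Egr1 (4.13 ± 0.26) and Fosb (0.499 ± 0.05), each with its SD over 3 libraries. Atf3, Jun and Fos overlapped as neighbours in that order, and the other neighbours did not. In GATA6KO the order was Jund (116 ± 15.6 CPM per kb), Junb (48.3 ± 16.1), Fosl2 (19.7 ± 3.98), Jun (17.4 ± 5.60), Fos (9.53 ± 4.22), Fosl1 (9.01 ± 4.89), Atf3 (7.40 ± 3.95), Dusp1 (5.08 ± 2.68), Egr1 (2.34 ± 1.12) and Fosb (0.320 ± 0.10). There the ranges over libraries of every pair of neighbours from Fosl2 to Egr1 overlapped. Ranges do not compare genes within a library, so an overlap does not mean that their order changed between libraries.

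Within the FOS family, Fos held a smaller share in every GATA6KO library than in any Control library, and Fosl2 a larger one. Fos made up 48.5%, 48.1% and 50.6% of the summed FOS family level per kb in Control and 32.3%, 14.4% and 28.7% in GATA6KO. Fosl2 made up 33.4%, 34.0% and 34.0% in Control and 49.0%, 51.4% and 53.7% in GATA6KO. Neither share overlapped between groups (2-sided exact permutation p = 0.1 for each, with 3 against 3 libraries). Shares of the same sum depend on each other, so these are not separate results. The level of Fosl2 itself was 20.2 ± 0.07 CPM per kb in Control and 19.7 ± 3.98 in GATA6KO. The share of Fosl1 was 16.3% ± 1.40 in Control against 22.7% ± 9.09 in GATA6KO (SD over 3 libraries; exact permutation p = 0.3), with 33.1% in GATA6KO replicate 2. In the JUN family, Jund held 60.3% ± 0.92 and 64.4% ± 4.09 (exact permutation p = 0.3, n = 3 each). The summed FOS family level was 59.6 ± 0.43 CPM per kb in Control against 38.5 ± 9.05 in GATA6KO, and the JUN family level 269 ± 15.3 against 182 ± 36.4 (SD over 3 libraries, no overlap in either). The ratio of the 2 sums was 0.222 ± 0.01 in Control and 0.212 ± 0.04 in GATA6KO (exact permutation p = 0.7, n = 3 each).

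**Figure D3:**
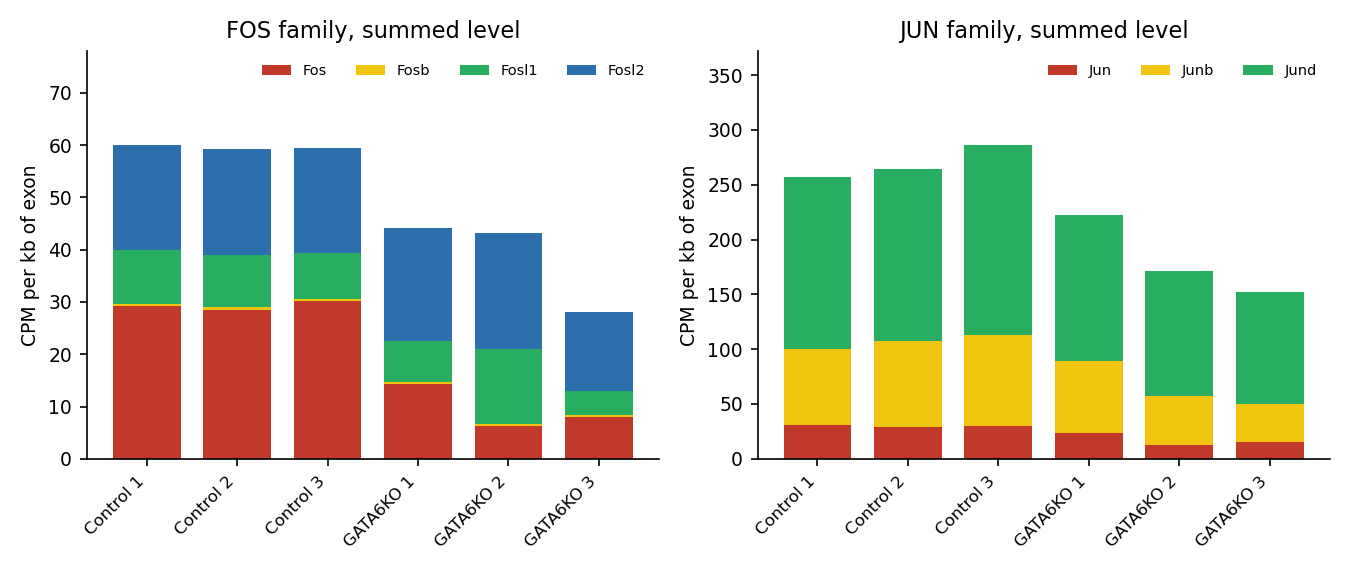
Summed level of the FOS genes (left) and JUN genes (right) in each library, in CPM per kb of exon, with colours for the single genes. The Fos segment is smaller in each GATA6KO library than in Control, and Jund is the largest segment of every JUN bar.

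For this list and those below, edgeR counts over all 6 libraries stand beside 5.47% of all genes tested called lower and 6.92% higher. At an unadjusted p under 0.05, 14.7% were lower (4662 of 14714 genes in either direction). DESeq2 called 10.4% lower (3238 genes in either direction). Without GATA6KO replicate 1, 14% were called lower (4360 genes in either direction). Without Control replicate 1, 2 or 3, 1.11%, 1.04% and 0.855% were called lower. At an unadjusted p under 0.05, 9.7%, 10.1% and 9.09% were then lower. Of the other bZIP factors that pair with or resemble AP-1 proteins, 12 of 15 were tested, and 1 was called lower and 0 higher (median log2 fold change -0.01). At an unadjusted p under 0.05, 3 were lower and 2 higher, and DESeq2 called 3 lower and 1 higher. The gene called was Jdp2, whose protein represses AP-1 sites as a JUN dimer, at 25.5, 23.6 and 34.8 CPM in Control and 7.22, 1.93 and 7.10 CPM in GATA6KO (log2 fold change -2.37, SE 0.48, edgeR adjusted p = 0.0258). Jdp2 lies on chromosome 12, as Fos does. It was not called without Control replicate 1, 2 or 3 (edgeR adjusted p of up to 0.112), nor with genes of any count kept (adjusted p = 0.0918). Without GATA6KO replicate 1, 3 genes of this list were called lower and 1 higher.

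Among 36 further immediate early genes, 32 were tested, 9 were called lower and 1 higher, with a median log2 fold change of -0.49. Klf6, a zinc-finger factor, had 286 ± 2.07 CPM in Control and 135 ± 30.4 CPM in GATA6KO (SD over 3 libraries each) and fell by 1.08 on the log2 scale (SE 0.16, edgeR adjusted p = 0.0109). Myc, the growth regulator, fell by 0.52 on the log2 scale (edgeR adjusted p = 0.0183), and Zfp36l2, an RNA-binding protein that hastens decay of transcripts, fell by 0.38 (adjusted p = 0.0291). Nfkbia, the inhibitor of NF-kB, fell by 0.49 (adjusted p = 0.0449). The gene called higher, named after its value was seen, was the nuclear receptor Nr4a2, at 3.61 and 6.71 CPM (adjusted p = 0.0348). Without Control replicate 1, 2 or 3, 0 genes of this list were called in either direction (12, 13 and 11 lower and 1 higher each time at an unadjusted p under 0.05), with adjusted p of up to 0.176 for the 4 named first, and without GATA6KO replicate 1, 17 were called lower. The call of Nfkbia was lost without GATA6KO replicate 2 as well (adjusted p = 0.0517), and 0 genes were called higher without GATA6KO replicate 3.

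Of 17 genes listed as ERK-dependent feedback genes, 16 were tested, 4 were called lower and 1 higher (median log2 fold change -0.25). Their dependence on ERK in these cultures was not tested. There were 8 lower and 1 higher at an unadjusted p under 0.05. The 11 not called included Dusp6 (log2 fold change 0.008), Spred1 (0.04), Spred2 (-0.05) and Phlda1 (-0.07), named after their values were seen. They also included Dusp5 (-1.09), Spry2 (-0.72), Spry1 (-0.37) and Etv4 (-0.34). In each of these the groups did not overlap, and the unadjusted edgeR p was under 0.05. The rest were Dusp7 (0.15), Etv1 (-0.13) and Spred3 (-0.16). The MAP kinase phosphatases Dusp4 and Dusp8 and the inhibitor Spry4 fell. Dusp4 went from 172 ± 13.5 CPM in Control to 77.7 ± 33.1 CPM in GATA6KO (SD over 3 libraries, here and in the rest of the paragraph), by a log2 fold change of -1.14 (edgeR adjusted p = 0.0436). Dusp8 went from 36.1 ± 2.34 to 15.4 ± 1.77 CPM, by -1.23 (adjusted p = 0.00320), and Spry4 from 14.9 ± 1.16 to 6.43 ± 1.33 CPM, by -1.21 (adjusted p = 0.0131). Etv5, an ETS factor, went up from 51.6 ± 4.01 to 90.1 ± 8.99 CPM, by 0.80 (adjusted p = 0.00754). Dusp8 was called without each library in turn, and Etv5 was not without Control replicate 3 (adjusted p = 0.0532). Spry4 was not called without Control replicate 1, 2 or 3 (adjusted p of up to 0.0740), nor was Dusp4 (up to 0.154), which was also lost without GATA6KO replicates 2 and 3 (0.0778 and 0.0833). Without Control replicate 1, 2 or 3, 1 gene of this list was called lower, and without GATA6KO replicate 1, 7 were. Without Control replicate 3, 0 were called higher (1 at an unadjusted p under 0.05).

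The kinases and factors upstream of AP-1 had a median log2 fold change of 0.00, with 2 of 20 tested genes called higher and 0 lower (0 also at an unadjusted p under 0.05 and by DESeq2). Of all genes tested, 6.92% were called higher. The ERK-activated kinase Rps6ka3 had 194 ± 4.21 CPM in Control and 267 ± 10.7 CPM in GATA6KO (SD over 3 libraries each) and rose by 0.46 on the log2 scale (edgeR adjusted p = 0.0161). Elk1, an ETS factor that acts with SRF, had 7.73 ± 0.72 and 13.0 ± 1.67 CPM and rose by 0.75 (adjusted p = 0.0331). Neither was called without Control replicate 1, 2 or 3 (adjusted p of up to 0.113 and 0.158). Without GATA6KO replicate 1, 3 genes of the list were called higher and 3 lower.

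Of 26 genes often given as AP-1 targets in epithelia, 22 were tested, 6 were called lower and 1 higher (median log2 fold change -0.42). The log2 fold change was negative for 12 of the 22, where it was for 48.1% of all genes tested. There were 8 lower and 6 higher at an unadjusted p under 0.05. Areg, an EGF receptor ligand, and Il1rn, the interleukin 1 receptor antagonist, fell by 2.21 and 1.04 on the log2 scale (edgeR adjusted p = 0.0345 and 0.0161). Hmga2, a chromatin protein, had 83.8 ± 2.41 CPM in Control and 124 ± 14.9 CPM in GATA6KO (SD over 3 libraries each) and rose by 0.56 (adjusted p = 0.0209). Areg, Il1rn and Hmga2 were not called without Control replicate 1, 2 or 3 (adjusted p of up to 0.116, 0.0822 and 0.112), nor Areg without GATA6KO replicate 2 (0.0603) or with genes of any count kept (0.167). Without Control replicate 1, 2 or 3, 1 gene of this list was called lower and 0 higher (3, 4 and 3 higher at an unadjusted p under 0.05), and without GATA6KO replicate 1, 8 were called lower and 4 higher.

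Targets of heat shock factor, which like immediate early genes can respond to handling, are given beside these results, and their part in them was not tested. Of 9 tested, 2 were called higher and 0 lower (0 also at an unadjusted p under 0.05 and by DESeq2), with a median log2 fold change of -0.02. Hspb1, a small heat shock protein, had 3.16 ± 0.45 CPM in Control and 20.0 ± 3.35 CPM in GATA6KO (SD over 3 libraries each). It rose by 2.66 on the log2 scale (edgeR adjusted p = 0.00153) and was called without each library in turn. Hsph1, a chaperone of the HSP110 group, had 99.2 ± 13.7 and 156 ± 25.7 CPM. It rose by 0.66 (adjusted p = 0.0403) and was called without GATA6KO replicate 1 but not without any other library (adjusted p of up to 0.170). The summed level of the 9 was 5539 to 5723 CPM in Control and 4995 to 6112 CPM in GATA6KO.

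**Figure D4:**
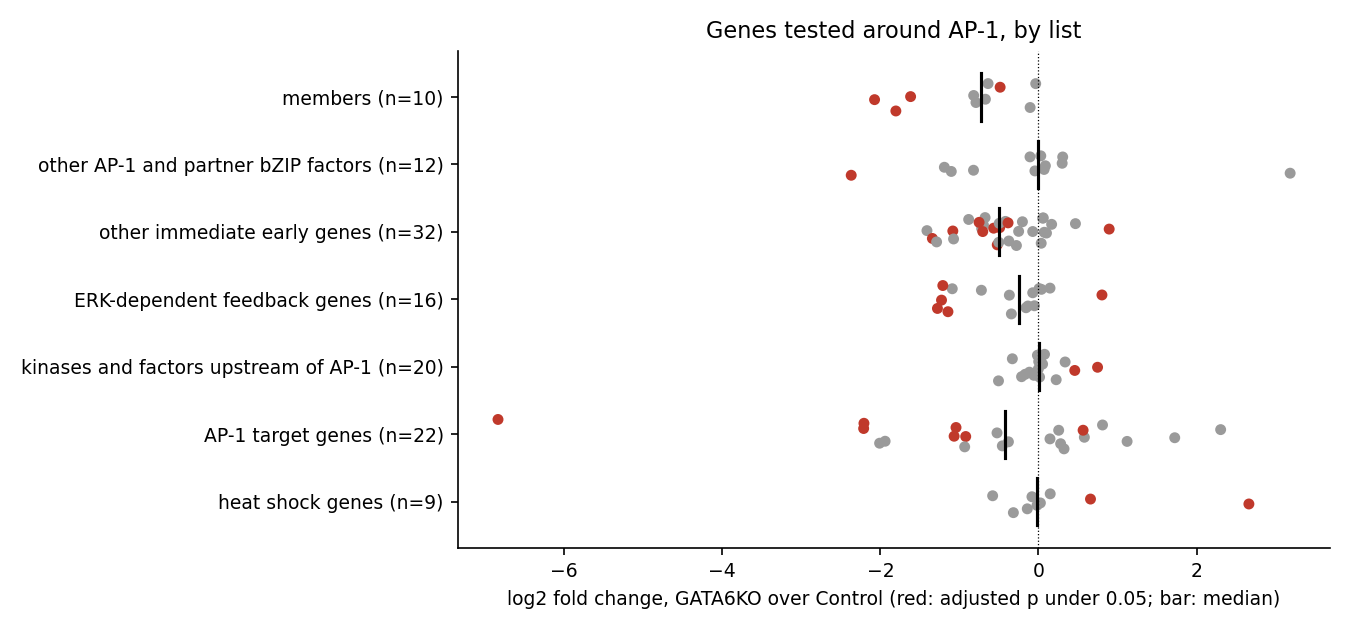
Log2 fold changes of GATA6KO over Control for the tested genes of each list (points, red where called, with a little vertical jitter) and the median of each list (bar). The members, the further immediate early genes and the AP-1 targets have medians of -0.73, -0.49 and -0.42, and the upstream kinases and heat shock genes have medians near 0.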

How the data were processed

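Per the labels' protocols, poly(A)-selected RNA of 6 libraries was prepared with a kit that marks strand (NEBNext Ultra II Directional). In the table, the authors deposited estimated counts per Ensembl gene in whole numbers, not scaled between libraries. Per the submitters' processing notes, Salmon 1.3.0 and mm10 were used in some role. How transcripts were summed to genes and rounded, with which annotation and with what strand setting, is not given in the sources used here. Estimated counts divide reads shared by similar transcripts, which can move values of overlapping genes.

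Symbols and coordinates came from GENCODE M21 (GRCm38), which matched 54166 of 54418 identifiers. Genes were kept by edgeR's filterByExpr (the equivalent of 10 counts in 3 or more libraries and 15 in total), scaled by TMM and tested by glmQLFTest with robust estimation, no block and Benjamini-Hochberg adjustment over all genes tested. The SE is the log2 fold change divided by the square root of F. Versions were edgeR 4.0.16, DESeq2 1.42.0 and limma 3.58.1 under R 4.3.3. The test was tried on simulated counts, with 50 changed genes at each size. It recovered 16% of 1.5-fold, 60% of 2-fold, 88% of 4-fold and 100% of 8-fold changes, with 10 false calls among 142. Jun, Junb, Egr1 and Fosb were estimated 1.56- to 1.76-fold lower. In the simulation, changes of that size were often missed. It gave 142 calls, where the data gave 1823, and it drew both groups with the same spread. Its rates may therefore not carry over to Jun, Junb, Egr1 and Fosb. The lack of a call still does not set these genes apart from the called members.

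The members, the lists and the alternatives were chosen with earlier results of these data known. The rule for named genes took all members, Gata6, the up to 4 most abundant called genes of each list and, for each member, the 3 genes nearest in profile. One gene that the rule took is counted in its list and its values are not reported here. Genes of several lists were not removed. Replicate numbers are shared by the groups, and the labels do not state whether they pair the libraries. Alternatives were RLE scaling, library totals, DESeq2, limma-voom, no filter, a stricter filter, the replicate block and each library left out.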

Additional observations from a re-analysis of the deposited data

How the results depend on the processing

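The members kept a negative log2 fold change in every alternative run, apart from Fosl2 with library totals alone (0.0392) and Fosl1 and Fosl2 without GATA6KO replicate 3. Over the fits that left out 1 library, Fosl1 ran from -0.61 to 0.20 and Fosl2 from -0.13 to 0.12. The number of members called was 4 in the chosen fit, 2 with no filter, and 0 to 7 when each library was left out in turn. It was 3 with library totals alone, 6 with DESeq2 and 5 with limma-voom. Over all genes, 1823 were called in the chosen fit, 3238 by DESeq2 and 332 to 4360 when each library was left out. Over the 111 tested genes of the 6 lists, 44 were called by DESeq2 and 3 to 50 when each library was left out, an alternative chosen after seeing the data. Without a Control library 332 to 425 genes were called, and without a GATA6KO library 1834 to 4360, though each such fit held equally many libraries. For each member the SD was larger among GATA6KO than among Control libraries (for Fos, 9.92 against 1.91 CPM). The edgeR test fits a common spread per gene to both groups, which is a limit of its p-values here. The causes of these differences were not tested. No setting gave a member a call in the higher direction.

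Same-numbered libraries did not deviate together from their group means (correlations across 14714 genes of -0.01, 0.07 and -0.09 for numbers 1 to 3). Differently numbered libraries gave -0.15 to 0.16. With 3 libraries per group, these values cannot decide whether the numbers pair the libraries. With the replicate block, 827 genes, 3 members (Atf3, Dusp1 and Fos) and 11 list genes were called. Jund then had a log2 fold change of -0.49 and adjusted p = 0.107. Among other named genes, the block also lost the calls of Gata6, Myc, Zfp36l2, Nfkbia, Dusp4, Rps6ka3, Elk1, Hmga2 and Hsph1 (adjusted p of 0.0527 to 0.106). Library totals alone lost those of Gata6 (0.057), Zfp36l2 (0.0581) and Nfkbia (0.0523). No filter lost those of Jdp2 (0.0918), Zfp36l2 (0.0665), Dusp4 (0.125) and Areg (0.167). The call of Nr4a2 was lost with the block and with no filter. The lowest counts of a member were those of Fosb, from 41 to 89 per library, where counting error limits precision most.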

Other observations

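For each member, the genes with the nearest profile were those with the smallest root mean square difference of mean-centred log2 CPM over the 6 libraries, among 9500 genes with a mean of at least 10 CPM. For Fos they were Gtpbp2, a GTP-binding protein (0.08), Il13ra1, a subunit of the interleukin 13 receptor (0.13), and Rhof, a small GTPase (0.13). For Dusp1 they were Mxd1, a partner of MAX that opposes MYC (0.08), Trim15 (0.08) and the glycosyltransferase Mgat4b (0.10). For Atf3 they were Pkdcc (0.17), Mgat4b (0.17) and Mxd1 (0.20). Mxd1 measured a log2 fold change of -1.77 (edgeR adjusted p = 0.0346) and Gtpbp2 one of -1.49 (adjusted p = 0.0258).

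For Jun the nearest were the ephrin receptor Ephb2 (0.05), the clock factor Arntl (0.06) and Prdm9 (0.06). For Junb they were Vps37b (0.05), Apba3 (0.05) and Rbpj, the DNA-binding factor of Notch signalling (0.06), and for Jund they were the chromatin protein Hmga1 (0.02), Ngef (0.04) and Avpi1 (0.04). For Egr1 they were the phosphatase Ssh1 (0.12), Pxdc1 (0.13) and Cited2 (0.13). For Fosb they were Nrp2 (0.09), the urokinase receptor gene Plaur (0.10) and Abcc3 (0.11). For Fosl1 they were Aldh1a3 (0.13), the hair follicle protein gene Tchh (0.14) and Fhl3 (0.16), and for Fosl2 they were the kinase Aak1 (0.03), Slc52a3 (0.04) and Slc35f6 (0.04). No member was among the 3 nearest of another member. Between members the smallest differences were those of Junb with Egr1 (0.19), with Jund (0.20) and with Jun (0.22), and of Atf3 with Dusp1 (0.22). These values describe 6 libraries and carry no test.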
